A study of Mus musculus with 8 samples.

Results

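The genes described here are Fgf4, the fibroblast growth factor (FGF) that mouse embryonic stem cells (ESCs) secrete, and 9 genes that receive or respond to its signal. They are the receptor genes Fgfr1 and Fgfr2, the feedback inhibitor genes Spry1, Spry2, Spry4, Spred1 and Dusp6, and the ETS transcription factor genes Etv4 and Etv5. The members are a fixed list of gene names, drawn up with earlier results of these data known, and each was matched by its Ensembl identifier. All 10 were found among the 55335 genes counted, and all 10 passed the filter on low counts, which 16504 genes passed.

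RNA-seq was done on E14 ESCs, a mouse ESC line, infected with lentiviruses that carry a short hairpin RNA (shRNA). The 4 groups were a control with a scrambled shRNA and shRNA knockdowns (KD) of 3 genes, Sox2, hnRNPK and Cdk9, with 2 replicates each, given as biological duplicates in the study's methods. Sox2 encodes a pluripotency transcription factor, hnRNPK is an RNA-binding protein encoded by Hnrnpk, and CDK9 is the kinase of the elongation factor P-TEFb. Every group, the control included, was selected with puromycin. The methods give no medium for these ESCs other than one with serum, leukemia inhibitory factor (LIF), the GSK3 inhibitor CHIR99021 and the MEK inhibitor PD0325901, on gelatin. The sources do not say which of the shRNAs against a gene a library received, or which replicates came from separate infections. Where they did not, the p-values measure only the spread between these libraries.

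FGF4 binds FGF receptors with heparan sulfate, and the receptors signal through the adaptors FRS2 and GRB2 to RAS, RAF, MEK and ERK. In ESCs this signal primes the cells to leave the naive state, and in the blastocyst FGF4 from the epiblast directs neighbouring cells to primitive endoderm. Sprouty and Spred proteins and the ERK phosphatase DUSP6 are induced by the pathway and dampen it, and Etv4 and Etv5 are transcribed in response to it. PD0325901 blocks the step from MEK to ERK, and the methods name no group grown without it. Where these ESCs were kept in that medium, the levels below are those of ESCs under MEK inhibition.

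Fgf4 (ENSMUSG00000050917.5) lies on the + strand at chr7:144847367-144865243 of GRCm38, the assembly that mm10 names. Its expression in ESCs depends on an enhancer to which SOX2 and the POU factor OCT4 bind side by side. The enhancer used by the study lies at chr7:144864284-144864588, in exon 3 of 3 of the transcript ENSMUST00000060336.4, inside the 3′ UTR and 1342 bases past the coding sequence. The 30 bases around its SOX and POU motifs are printed because they link the gene to the factor knocked down. The capitals mark the SOX motif CTTTGT and the octamer motif ATGCNAAT, which stand 4 bases apart on the + strand at chr7:144864390-144864419.

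Fgf4 enhancer site: aactCTTTGTttggATGCTAATgggatact

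Searched on both strands, the 305 bases of the enhancer hold 1 match to CTTTGT, 2 to ATGCNAAT and 1 to the ETS motif GGAAGT. A promoter window of 250 bases before the start site, from RefSeq (GRCm38.p6), is reported for 7 members, with 8 entries since Etv5 has 2. A window of Spry4 is not reported here. In all 32851 such windows, CTTTGT was found in 16.46%, ATGCNAAT in 2.861%, GGAAGT in 19.74% and the GC box GGGCGG in 32.74%. The Fgf4 window, at chr7:144861136-144861385 on the + strand, holds no match to the SOX, octamer or ETS letters and 2 GC boxes, marked in capitals. It is printed to set the RefSeq start site, which lies inside the GENCODE span of the gene given above, beside the enhancer.

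Fgf4 promoter: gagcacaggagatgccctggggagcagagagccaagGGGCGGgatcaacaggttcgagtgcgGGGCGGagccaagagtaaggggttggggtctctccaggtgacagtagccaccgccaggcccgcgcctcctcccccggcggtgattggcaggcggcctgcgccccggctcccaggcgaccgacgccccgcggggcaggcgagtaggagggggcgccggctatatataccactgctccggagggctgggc

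Of the other windows, that of Spry2 holds 1 match to CTTTGT and 1 of the windows of Etv5 holds 1 match to GGAAGT. The octamer letters were found in none of the 8 windows. These matches describe letters and do not show binding.

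Each library held 16709201 to 17719366 counts. Values are counts relative to library size (CPM) after TMM normalization, which scales the libraries to each other, and per length they are CPM per kb of exon. Differential expression (DE) was called at an adjusted p under 0.05 and an absolute log2 fold change (log2FC) over 0.6, the thresholds of the study. Adjusted p-values are from edgeR's quasi-likelihood test over all 16504 genes, and errors of log2FC are standard errors (SE). Sox2 was at 412 and 530 CPM in control and at 320 and 284 CPM in Sox2-KD, a log2FC of -0.64 (SE 0.16, adjusted p = 0.0479) that passed the thresholds in 5 of 14 alternatives. Cdk9 had a log2FC of -0.91 in Cdk9-KD (SE 0.18, adjusted p = 0.0985), with both libraries below both control libraries. It was DE with DESeq2 (adjusted p = 0.00060), the exact test (0.0011), the likelihood ratio test (0.00097) and without Cdk9-KD replicate 1 (0.0459). Hnrnpk was at 697 CPM in replicate 1 of the hnRNPK-KD-labelled libraries and at 1144 CPM in replicate 2, against 1094 and 1131 CPM in control. Replicate 2 thus shows no drop in the targeted transcript, and any direction drawn from the hnRNPK-KD-labelled libraries carries that limit.

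The summed CPM of 8 naive ESC markers was 6877 to 7098 in control, 6013 to 6648 in Sox2-KD, 6927 to 7193 in the hnRNPK-KD-labelled libraries and 7076 to 8320 in Cdk9-KD. The libraries therefore carry the transcripts that define ESCs, and summed fibroblast markers were at most 6.19 CPM in any library. Formative epiblast markers, which rise as ESCs leave the naive state, summed to 164 to 199 CPM in control, 210 to 226 CPM in Sox2-KD, 148 to 179 CPM in the hnRNPK-KD-labelled libraries and 110 to 124 CPM in Cdk9-KD, with 0 of 4 tested DE against control in any knockdown by edgeR's quasi-likelihood test. Most of that sum was Dnmt3b, at 154 and 182 CPM in control. Otx2, a formative transcription factor gene, did not follow the sum, with 1.52 and 1.78 CPM in control, at most 1.87 CPM in Sox2-KD, 3.17 and 6.29 CPM in the hnRNPK-KD-labelled libraries (log2FC 1.52, adjusted p = 0.420) and 6.13 and 5.56 CPM in Cdk9-KD (log2FC 1.82, adjusted p = 0.155). Trophectoderm markers summed to 89.0 to 101 CPM in control, 185 to 317 CPM in Sox2-KD, 97.5 to 130 CPM in the hnRNPK-KD-labelled libraries and 80.2 to 82.7 CPM in Cdk9-KD. In Sox2-KD, 4 of the 6 trophectoderm markers tested were DE and higher (Eomes, Gata3, Krt8 and Krt18), while Elf5 and Hand1 were too low to test. The other 2 were lower in both libraries, Cdx2 at 6.10 and 6.22 CPM against 19.8 and 35.1 CPM in control (log2FC -2.15, adjusted p = 0.0521) and Tfap2c with a log2FC of -0.50 (adjusted p = 0.398). In Cdk9-KD, Eomes was DE and higher (log2FC 2.39, adjusted p = 0.0191) and Tfap2c DE and lower (log2FC -2.04, adjusted p = 0.0416). Primitive endoderm markers summed to 225 to 254 CPM in control and 153 to 213 CPM in Sox2-KD. The sums were 312 to 332 CPM in the hnRNPK-KD-labelled libraries and 295 to 353 CPM in Cdk9-KD. Most of the control sum was Lama1, at 243 and 217 CPM. In Sox2-KD, Dab2 and Gata6 were DE and higher and Lama1 DE and lower. Gata3 and Gata6 passed the filter only through the Sox2-KD libraries, with 43 and 50 counts of Gata3 and 49 and 68 of Gata6 there. Elsewhere Gata3 had at most 6 counts and Gata6 at most 10, so a high level in Sox2-KD decided that they were tested. The part of cells with such markers in the results below was not tested. In bulk samples a change in the share of a cell type and a change in RNA per cell cannot be told apart.

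In control, the members spanned a wide range of levels per length. Etv5 was highest with a mean of 116 CPM per kb, followed by Fgf4 with 62.9, Spry2 with 55.5 and Etv4 with 17.3 CPM per kb. Spred1 had 10.9, Fgfr1 9.30, Dusp6 4.67, Spry1 2.54 and Spry4 2.03 CPM per kb, and Fgfr2 was lowest with 0.0494 CPM per kb. The control libraries overlapped between Fgf4 and Spry2, between Spred1 and Fgfr1 and between Spry1 and Spry4, so these neighbours do not differ beyond their spread. The other neighbours in the order did not overlap. The ligand, both ETS genes and Spry2 were thus the 4 highest members.

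**Figure D1:**
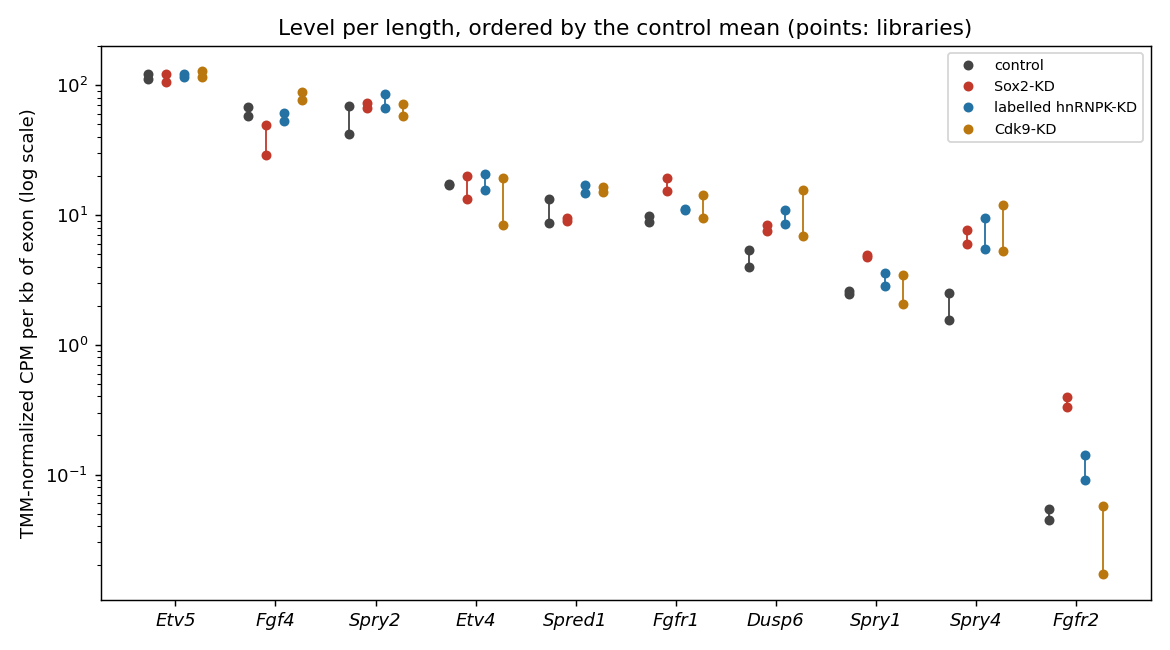
Level of each member in CPM per kb of exon (log scale, vertical axis), ordered by the control mean, with 1 point per library and a line joining the 2 libraries of a group. Fgfr2, at 0.0494 CPM per kb in control, sits far below the other 9 members, and its Sox2-KD points stand above those of every other group.

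The comparison of Sox2-KD with control asks which members change when SOX2, the factor of the Fgf4 enhancer, is reduced. The receptor genes Fgfr1 and Fgfr2 and the inhibitor gene Spry4 rose, and no member fell past both thresholds. Of the 10 members, 3 were DE and higher, where 2.63% of all genes tested were, and 0 were DE and lower, where 1.69% of all genes were. At an unadjusted p under 0.05, 5 members were higher and 1, Fgf4, was lower, against 19.3% of all genes in either direction. The exact test, the likelihood ratio test and DESeq2 each called 5 members, adding Spry1 as higher and Fgf4 as lower. Over all 16504 genes these tests called 1279, 1350 and 1029. With any 1 of the 4 compared libraries left out, none of the 3 calls held, and fewer genes were called over all genes tested as well. The log2FC kept its direction, at 0.72 to 1.05 for Fgfr1, 2.71 to 2.99 for Fgfr2 and 1.42 to 2.12 for Spry4. The median log2FC of the members was 0.55 and that of all genes tested was 0.02.

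Fgf4 was at 217 and 185 CPM in control and at 93.2 and 156 CPM in Sox2-KD. Both Sox2-KD libraries were below both control libraries, as 25.2% of all genes were, and replicate 1 was by far the lower. The log2FC was -0.69 (SE 0.22, 95% confidence interval -1.18 to -0.20), with an adjusted p of 0.112 in edgeR's quasi-likelihood test, so the difference did not pass the threshold. It rests much on Sox2-KD replicate 1: the log2FC was -0.37 without that library and -1.11 (adjusted p = 0.0463) without Sox2-KD replicate 2.

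In Cdk9-KD, Fgf4 was at 244 and 283 CPM, above both control libraries, with a log2FC of 0.39 against control (SE 0.22, adjusted p = 0.574). In the hnRNPK-KD-labelled libraries it was at 195 and 169 CPM, which overlap the control libraries. The log2FC there was -0.15 (SE 0.22, 95% confidence interval -0.63 to 0.34). Directly compared, Fgf4 was lower in Sox2-KD than in Cdk9-KD by a log2FC of -1.08 (SE 0.22, adjusted p = 0.0159), and the libraries did not overlap. That call was lost without Sox2-KD replicate 1 (log2FC -0.76, adjusted p = 0.0673) or Cdk9-KD replicate 2 (log2FC -0.98, adjusted p = 0.0750). Against the hnRNPK-KD-labelled libraries, Fgf4 in Sox2-KD had a log2FC of -0.54 (SE 0.22, adjusted p = 0.184).

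**Figure D2:**
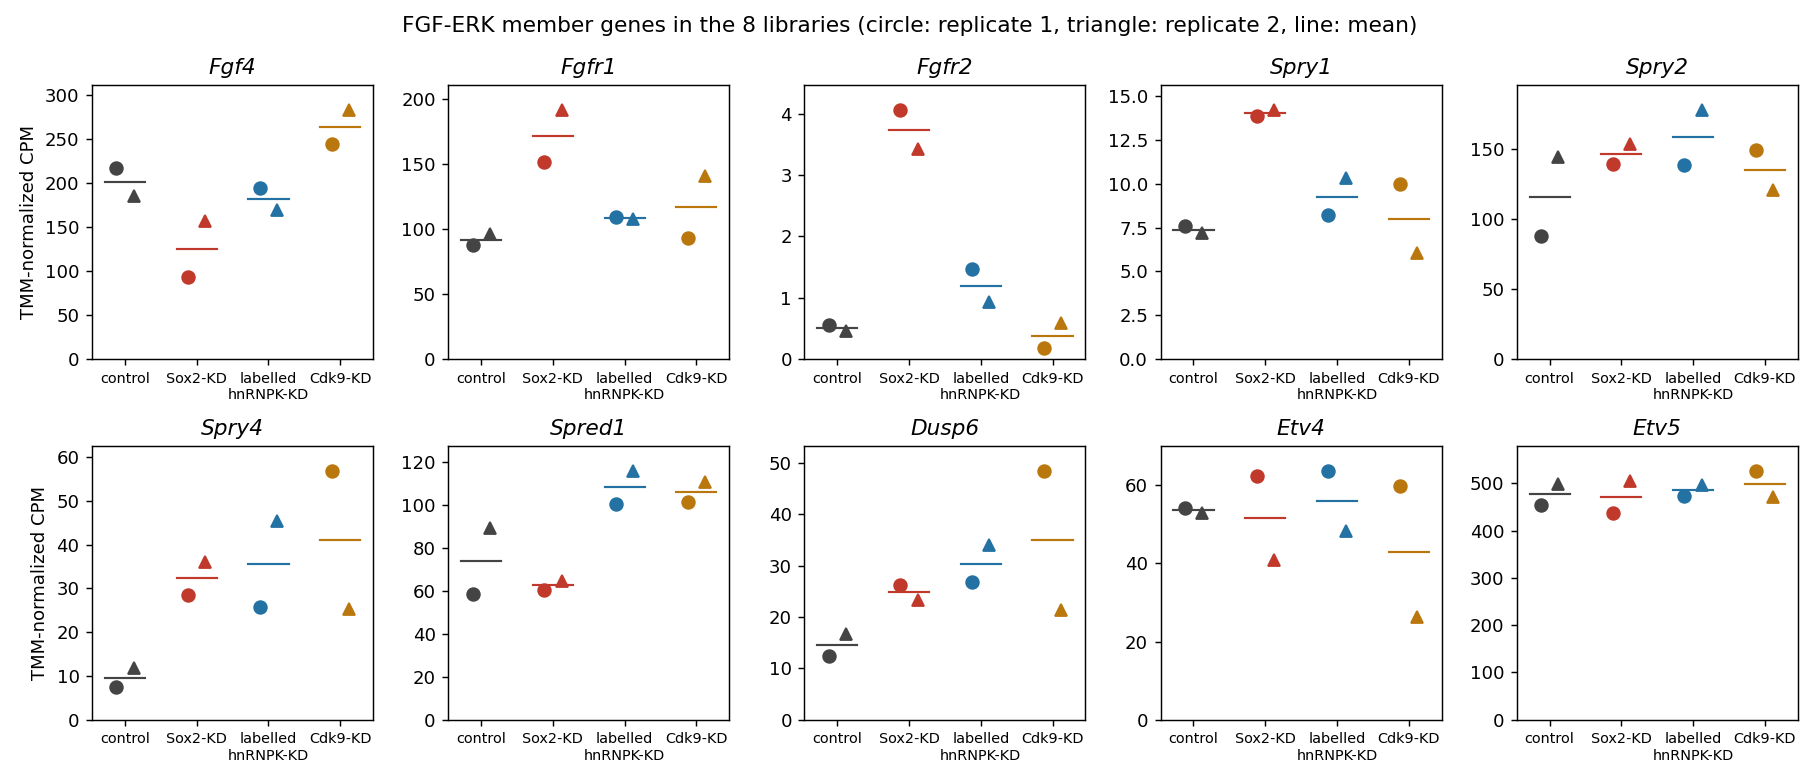
TMM-normalized CPM (vertical axis, from 0) of the 10 members in the 8 libraries, with circles for replicate 1, triangles for replicate 2 and a line at the group mean. Fgf4 is lowest in the Sox2-KD libraries (93.2 and 156 CPM) and highest in the Cdk9-KD libraries (244 and 283 CPM), and Spry4 is lowest in the control libraries (7.38 and 11.9 CPM).

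Fgfr1 (ENSMUSG00000031565.18, chr8:25513654-25575718, + strand) encodes the main FGF receptor of naive ESCs. It was at 87.5 and 96.2 CPM in control and at 151 and 192 CPM in Sox2-KD. The groups did not overlap, and Fgfr1 rose by a log2FC of 0.90 (SE 0.20, adjusted p = 0.0326). Its level was 110 and 108 CPM in the hnRNPK-KD-labelled libraries, with a log2FC of 0.24 (SE 0.20, adjusted p = 0.836). In Cdk9-KD it was 93.1 and 141 CPM, with a log2FC of 0.35 (SE 0.20, adjusted p = 0.580). The Sox2-KD libraries were thus above all others, but their difference from the hnRNPK-KD-labelled libraries (log2FC 0.66, adjusted p = 0.0824) and from Cdk9-KD (log2FC 0.55, adjusted p = 0.129) did not pass the threshold in edgeR's quasi-likelihood test. The former passed in 5 of 14 alternatives, namely DESeq2 (adjusted p = 0.0267), the exact test (0.0304), the likelihood ratio test (0.0288), library totals (0.0367) and only the 4 libraries compared (0.0466). The latter passed without Cdk9-KD replicate 2 (adjusted p = 0.0382). The gene overlaps the opposite-strand gene Gm16159, and since the strand setting of the counting is not stated, its counts are uncertain to that extent.

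Fgfr2 (ENSMUSG00000030849.18, chr7:130162451-133123350, − strand) encodes a receptor used by primitive endoderm and trophectoderm. Few reads fell on it, 10 and 8 counts in control, 74 and 60 in Sox2-KD, 25 and 16 in the hnRNPK-KD-labelled libraries and 3 and 10 in Cdk9-KD. In CPM these were 0.563 and 0.458 in control, 4.07 and 3.42 in Sox2-KD, 1.47 and 0.931 in the hnRNPK-KD-labelled libraries and 0.175 and 0.591 in Cdk9-KD. The Sox2-KD libraries were the highest and did not overlap any other group. Fgfr2 rose in Sox2-KD against control by a log2FC of 2.86 (SE 0.51, 95% confidence interval 1.72 to 3.99, adjusted p = 0.0141). Against Cdk9-KD it was higher in Sox2-KD by a log2FC of 3.27 (SE 0.54, adjusted p = 0.00588), and that call was kept with each of these libraries left out in turn. Against the hnRNPK-KD-labelled libraries the log2FC was 1.64 (SE 0.47, adjusted p = 0.0686), which passed with library totals (adjusted p = 0.0489), the exact test (0.0111) and the likelihood ratio test (0.0089). The summed trophectoderm markers, given above, were also highest in the Sox2-KD libraries, where that sum was mostly Krt8 and Krt18 and Cdx2 was lower than in control. Gata6, a primitive endoderm factor that passed the filter only through the Sox2-KD libraries, was at 2.69 and 3.88 CPM there against 0.225 and 0.286 CPM in control. The summed primitive endoderm markers were lower there than in control, as was Lama1, which made up most of the control sum. Dab2, of the same list, was DE and higher (log2FC 5.85, adjusted p = 0.00019). Col4a1 (log2FC 1.68, adjusted p = 0.138) and Pdgfra (0.39, adjusted p = 0.638) were higher in both libraries, short of the threshold. Sox17 had a log2FC of 2.10 (adjusted p = 0.200), with 17 and 10 counts in Sox2-KD and at most 4 elsewhere. Gata4 had a log2FC of -0.25 (adjusted p = 0.838). The annotated span of Fgfr2 shares exon bases with Ctbp2 on the same strand, which makes its count uncertain.

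Spry4 (ENSMUSG00000024427.7, on chromosome 18) encodes a Sprouty protein, an inhibitor of receptor signalling to RAS. It was at 7.38 and 11.9 CPM in control, 28.5 and 36.1 CPM in Sox2-KD, 25.8 and 45.4 CPM in the hnRNPK-KD-labelled libraries and 56.9 and 25.2 CPM in Cdk9-KD. Both control libraries were below all 6 knockdown libraries, and the knockdown groups overlapped each other. Spry4 rose in Sox2-KD by a log2FC of 1.74 (SE 0.40, adjusted p = 0.0373). The corresponding log2FC was 1.88 (SE 0.40, adjusted p = 0.304) in the hnRNPK-KD-labelled libraries and 2.09 (SE 0.40, adjusted p = 0.0970) in Cdk9-KD by edgeR's quasi-likelihood test. These comparisons share the control libraries. The direct comparisons leave the control libraries out of the difference, though not out of the fit. In them, Spry4 had a log2FC of -0.14 between Sox2-KD and the hnRNPK-KD-labelled libraries (95% confidence interval -0.97 to 0.69), -0.35 between Sox2-KD and Cdk9-KD (-1.18 to 0.49) and 0.21 between Cdk9-KD and the hnRNPK-KD-labelled libraries (-0.63 to 1.04).

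Dusp6 (ENSMUSG00000019960.8, chr10:99263231-99267489, + strand) encodes a phosphatase that removes the activating phosphates from ERK. It was at 12.4 and 16.8 CPM in control, 26.2 and 23.4 CPM in Sox2-KD, 26.7 and 34.0 CPM in the hnRNPK-KD-labelled libraries and 48.5 and 21.4 CPM in Cdk9-KD. As for Spry4, the control libraries were the lowest of the 8 and Cdk9-KD replicate 1 the highest. By edgeR's quasi-likelihood test, no comparison of Dusp6 with control passed the threshold, with log2FC of 0.76 (SE 0.33, adjusted p = 0.238), 1.05 (SE 0.33, adjusted p = 0.487) and 1.26 (SE 0.33, adjusted p = 0.219) in the order Sox2-KD, labelled hnRNPK-KD and Cdk9-KD. In Cdk9-KD it passed with DESeq2 (adjusted p = 0.0120), the exact test (0.0297) and the likelihood ratio test (0.0260). Without Cdk9-KD replicate 1, the log2FC in Cdk9-KD was 0.52 for Dusp6 and 1.35 for Spry4. Over the 8 libraries, the log2 CPM of Dusp6 and Spry4 had a Pearson r of 0.941, the highest among the 45 pairs of members. This is a description over 8 libraries that share groups and depth.

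**Figure D3:**
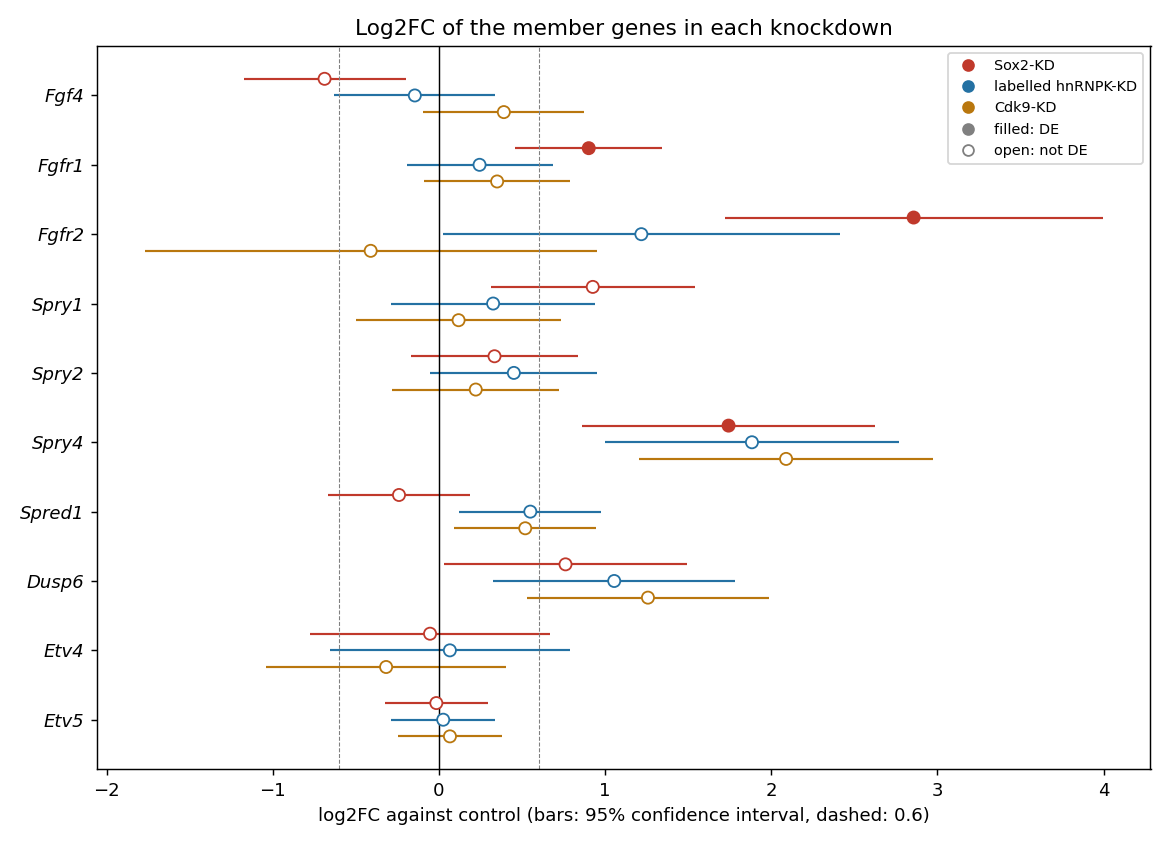
Log2FC of each member against control (horizontal axis) in Sox2-KD, the hnRNPK-KD-labelled libraries and Cdk9-KD, with 95% confidence intervals, filled where DE. The filled points are Fgfr1 (0.90), Fgfr2 (2.86) and Spry4 (1.74) in Sox2-KD, and the Spry4 points of the 3 comparisons lie close together, at 1.74, 1.88 and 2.09.

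Spry1 (ENSMUSG00000037211.12, chr3:37639947-37644598, + strand), another Sprouty gene, was at 7.60 and 7.16 CPM in control and 13.8 and 14.2 CPM in Sox2-KD. The replicates lay close together in both groups and the groups did not overlap. The log2FC was 0.93 (SE 0.28, adjusted p = 0.0918 by edgeR's quasi-likelihood test), short of the threshold. Spry1 was at 8.21 and 10.3 CPM in the hnRNPK-KD-labelled libraries and at 9.99 and 6.03 CPM in Cdk9-KD, with log2FC of 0.33 (SE 0.28) and 0.12 (SE 0.28). It overlaps Gm42922 on the opposite strand, so its counts are uncertain in the same way as those of Fgfr1.

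Spry2 (ENSMUSG00000022114.5, chr14:105891947-105896819, − strand) had the highest level of the inhibitor genes per length. It was at 87.6 and 144 CPM in control, 139 and 153 CPM in Sox2-KD, 139 and 178 CPM in the hnRNPK-KD-labelled libraries and 150 and 121 CPM in Cdk9-KD. Control replicate 1 was the lowest library, and every knockdown group overlapped the control. The log2FC were 0.33, 0.45 and 0.22 in the same order of groups (SE 0.23 each), with 95% confidence intervals of -0.17 to 0.84, -0.05 to 0.95 and -0.28 to 0.72.

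Spred1 (ENSMUSG00000027351.14, chr2:117121374-117182279, + strand) encodes an inhibitor that recruits neurofibromin to RAS. It was at 58.5 and 89.4 CPM in control, 60.6 and 64.6 CPM in Sox2-KD, 101 and 116 CPM in the hnRNPK-KD-labelled libraries and 102 and 110 CPM in Cdk9-KD. The control libraries spanned the Sox2-KD libraries, and the libraries of the other knockdowns were above both. Spred1 was lower in Sox2-KD than in the hnRNPK-KD-labelled libraries by a log2FC of -0.79 (SE 0.19, adjusted p = 0.0390). It was lower than in Cdk9-KD by a log2FC of -0.76 (SE 0.19, adjusted p = 0.0403). Neither call held with any of the compared libraries left out, with log2FC of -0.89 to -0.67 and -0.81 to -0.71. Against control, the log2FC was -0.24 in Sox2-KD (adjusted p = 0.553), 0.55 in the hnRNPK-KD-labelled libraries (adjusted p = 0.520) and 0.52 in Cdk9-KD (adjusted p = 0.389), with an SE of 0.19 each.

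Etv5 (ENSMUSG00000013089.15, chr16:22381309-22439719, − strand), an ETS factor gene with a high level in ESCs, varied little. It ranged from 438 CPM in Sox2-KD replicate 1 to 527 CPM in Cdk9-KD replicate 1, with control at 454 and 498 CPM. Every knockdown group overlapped the control. The log2FC were -0.02 in Sox2-KD (95% confidence interval -0.33 to 0.30), 0.03 in the hnRNPK-KD-labelled libraries (-0.29 to 0.34) and 0.07 in Cdk9-KD (-0.25 to 0.38). All 3 intervals exclude a log2FC of 0.6 in either direction.

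Etv4 (ENSMUSG00000017724.14, chr11:101769742-101785371, − strand), its paralog, was at 54.2 and 52.9 CPM in control, 62.3 and 40.9 CPM in Sox2-KD, 63.7 and 48.4 CPM in the hnRNPK-KD-labelled libraries and 59.7 and 26.2 CPM in Cdk9-KD. In every knockdown group replicate 1 was above and replicate 2 below both control libraries. The log2FC were -0.05, 0.07 and -0.32 (SE 0.33 each), with 95% confidence intervals of -0.77 to 0.67, -0.66 to 0.79 and -1.04 to 0.41. These intervals do not exclude a change past the log2FC threshold.

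In the hnRNPK-KD-labelled libraries, 0 members were DE by edgeR's quasi-likelihood test, against 0% of all genes. The exact test, the likelihood ratio test and DESeq2 each called 1 member, Spry4, against 81, 87 and 83 of all 16504 genes. At an unadjusted p under 0.05 there were 4 members, Fgfr2, Spry4, Spred1 and Dusp6, all higher, against 8.03% of all genes. Both libraries were above both control libraries for 6 members, namely Fgfr1, Fgfr2, Spry1, Spry4, Spred1 and Dusp6, as for 20.4% of all genes, and below both for 0 members, as for 18.7% of all genes. The median log2FC of the members was 0.39, against 0.02 for all genes. Without replicate 2, whose Hnrnpk level was not reduced, the log2FC was 1.39 for Spry4, 0.85 for Dusp6 and 0.42 for Spred1.

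In Cdk9-KD, 0 members were DE by edgeR's quasi-likelihood test, against 0.139% of all genes. The exact test, the likelihood ratio test and DESeq2 each called 2 members, Spry4 and Dusp6, against 242, 279 and 222 of all 16504 genes. At an unadjusted p under 0.05 there were 3 members, Spry4, Spred1 and Dusp6, all higher, against 10.4% of all genes. Both libraries were above both control libraries for 4 members, Fgf4, Spry4, Spred1 and Dusp6, as for 21.2% of all genes, and below both for 0, as for 18% of all genes. The median log2FC of the members was 0.29, against 0.02 for all genes. In Sox2-KD the corresponding members were 5 above both control libraries, namely Fgfr1, Fgfr2, Spry1, Spry4 and Dusp6, as for 28.2% of all genes. The 3 comparisons share their control libraries.

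**Figure D4:**
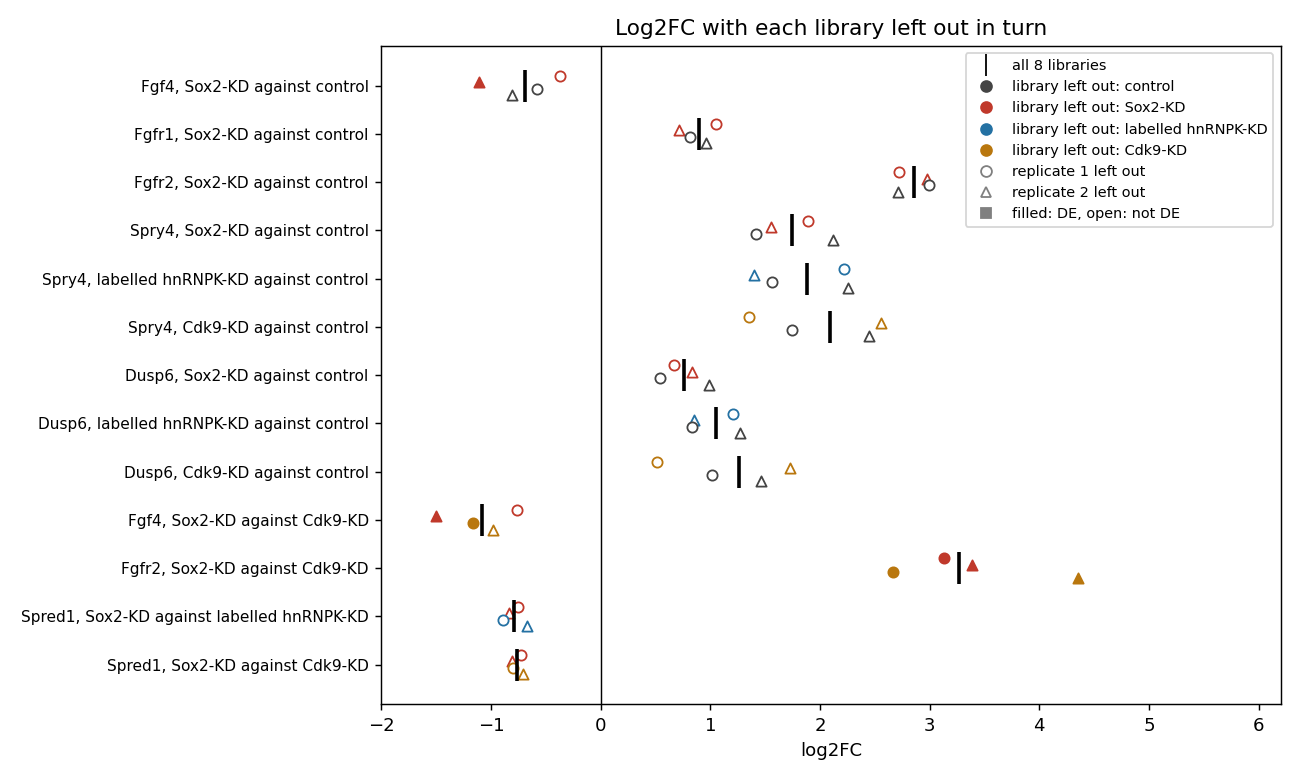
Log2FC (horizontal axis) of the members named in each comparison with all 8 libraries (black bars) and with each library of the compared groups left out in turn (points, filled where DE). The points of Fgf4 in Sox2-KD against control run from -1.11 to -0.37, and the Fgfr2 points of Sox2-KD against Cdk9-KD, from 2.67 to 4.35, are all filled.

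Between knockdowns, Sox2-KD against Cdk9-KD gave 1 member DE and higher, Fgfr2, where 4.77% of all genes were. In the same comparison 2 members were DE and lower, Fgf4 and Spred1, where 2.56% of all genes were. Sox2-KD against the hnRNPK-KD-labelled libraries gave 0 members higher, where 3.95% of all genes were, and 1 lower, Spred1, where 1.95% of all genes were. Cdk9-KD against the hnRNPK-KD-labelled libraries gave 0 members DE, against 0% of all genes by edgeR's quasi-likelihood test. It also gave 0 by the exact test, the likelihood ratio test and DESeq2, against 49, 67 and 56 of all 16504 genes. At an unadjusted p under 0.05 in edgeR's quasi-likelihood test that comparison held 2 members, against 943 of all 16504 genes. They were Fgf4 with a log2FC of 0.54 (SE 0.22, adjusted p = 0.833) and Fgfr2 with -1.63 (SE 0.57, adjusted p = 0.792).

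The rest of the pathway was followed in 60 listed genes, of which 49 passed the filter. Among the 60 are 7 genes with a known OCT4 and SOX2 composite enhancer (the enhancer list), which include Sox2 itself. In Sox2-KD against control, 4 were DE and higher, against 2.63% of all genes, and 3 were DE and lower, against 1.69%. Of these, Utf1 (higher) and Sox2 (lower) come from the enhancer list, and Sox2 is the gene targeted. With 1 library left out fewer of the listed genes were DE, and fewer over all genes tested as well. By edgeR's quasi-likelihood test, 0 were DE in the hnRNPK-KD-labelled libraries, with 6 higher and 4 lower at an unadjusted p under 0.05, against 8.03% of all genes in either direction. In Cdk9-KD 0 were DE, with 3 higher and 4 lower at that p, against 10.4% of all genes. DESeq2 called 1 gene in the hnRNPK-KD-labelled libraries and 2 in Cdk9-KD, against 83 and 222 of all 16504 genes.

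Among the other ligand genes, 4 of 10 passed the filter and 2 of them, Fgf3 and Fgf10, fell in Sox2-KD. Fgf3, the neighbour of Fgf4, ends 2930 bases before the GENCODE span of Fgf4 on the same strand of chromosome 7, and the RefSeq promoter window printed above lies further on, inside that span. It was at 7.71 and 7.50 CPM in control, 0.824 and 1.08 CPM in Sox2-KD, 4.63 and 4.66 CPM in the hnRNPK-KD-labelled libraries and 5.02 and 5.09 CPM in Cdk9-KD. The Sox2-KD libraries were far below all others, and the replicates of each group lay close together. The log2FC in Sox2-KD was -2.99 (SE 0.32, adjusted p = 0.00232), and it passed the thresholds in all 14 alternatives run, with log2FC of -3.20 to -2.81 with 1 library left out. It was also lower than in the hnRNPK-KD-labelled libraries (log2FC -2.28, adjusted p = 0.005) and in Cdk9-KD (log2FC -2.40, adjusted p = 0.00258). On the other side of Fgf4 lie Fgf15, with at most 12 counts in any library, and Ccnd1, a cyclin D gene with a log2FC of -0.91 in Sox2-KD (SE 0.29, adjusted p = 0.112).

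Fgf10, a ligand of FGFR2, was at 6.76 and 8.36 CPM in control, 1.98 and 1.77 CPM in Sox2-KD, 5.92 and 7.10 CPM in the hnRNPK-KD-labelled libraries and 4.79 and 9.52 CPM in Cdk9-KD. The Sox2-KD libraries were below all others, with a log2FC of -2.01 against control (SE 0.37, adjusted p = 0.0158). Without any 1 of the 4 libraries compared, the adjusted p was 0.0523 to 0.120. Fgf2, Fgf5, Fgf8, Fgf9, Fgf15 and Fgf18 were too low to test.

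In the list of receptors and co-receptors, 5 of 7 genes passed the filter and 0 were DE against control. Klb, which encodes the co-receptor β-Klotho, was at 1.41 and 1.43 CPM in control, 2.53 and 5.42 CPM in Sox2-KD, 0.762 and 0.524 CPM in the hnRNPK-KD-labelled libraries and 0.350 and 0.237 CPM in Cdk9-KD. It was higher in Sox2-KD than in the hnRNPK-KD-labelled libraries by a log2FC of 2.61 (SE 0.49, adjusted p = 0.0153) and than in Cdk9-KD by 3.72 (SE 0.54, adjusted p = 0.00337). Fgfrl1, which encodes a receptor without a kinase domain, was also higher in Sox2-KD in these comparisons, with log2FC of 1.89 (SE 0.36, adjusted p = 0.0156) and 1.32 (SE 0.35, adjusted p = 0.0448). With 1 library left out, Klb stayed past the thresholds against Cdk9-KD, but against the hnRNPK-KD-labelled libraries it did not without replicate 2 of either group. Fgfrl1 stayed past them in these cases only without Sox2-KD replicate 1 against the hnRNPK-KD-labelled libraries, and against Cdk9-KD it was also lost with no filter on low counts (adjusted p = 0.0649). Il17rd, a gene for an inhibitory co-receptor, had a log2FC of 0.61 in Sox2-KD against control (SE 0.20, adjusted p = 0.117). Fgfr3 and Kl were too low to test.

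In the chain from receptor to ERK no gene was called against control. Of the 10 adaptor and RAS regulator genes and the 11 genes of the RAS, RAF, MEK and ERK cascade, all tested, 0 were DE in any knockdown against control by edgeR's quasi-likelihood test. At an unadjusted p under 0.05, 1 adaptor gene and 2 cascade genes passed in Sox2-KD, against 19.3% of all genes. The adaptor genes with the largest changes there were Sos2 (log2FC 0.50, SE 0.23, adjusted p = 0.266) and Frs2 (0.45, SE 0.47, adjusted p = 0.654). In the cascade, Mapk3, which encodes ERK1, had a log2FC of -0.49 (SE 0.15, adjusted p = 0.0997). Sos2, an exchange factor gene for RAS, was higher in Sox2-KD than in Cdk9-KD (log2FC 0.87, SE 0.23, adjusted p = 0.0479), a call lost without any 1 of these 4 libraries, with no filter on low counts (adjusted p = 0.0862) and with the replicate block (adjusted p = 0.0571).

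Of the other feedback inhibitor genes, 6 were tested and Spred3 rose in Sox2-KD. It was at 8.11 and 7.56 CPM in control, 20.2 and 20.9 CPM in Sox2-KD, 13.1 and 9.08 CPM in the hnRNPK-KD-labelled libraries and 14.1 and 9.28 CPM in Cdk9-KD. The control libraries were the lowest and the Sox2-KD libraries the highest, with a log2FC of 1.39 in Sox2-KD (SE 0.27, adjusted p = 0.0187), and the adjusted p was 0.0628 to 0.130 without any 1 of these 4 libraries. Dusp9, a phosphatase gene with a high level in ESCs, was higher in Sox2-KD than in Cdk9-KD by a log2FC of 1.87 (SE 0.35, adjusted p = 0.0112), lost without Sox2-KD replicate 1 or Cdk9-KD replicate 2. Dusp4 had a log2FC of -0.996 in Sox2-KD against control (SE 0.72, adjusted p = 0.502), and Spry3 was not analysed here.

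Transcripts of other ERK-responsive genes were mixed, with 2 of 6 tested genes DE in Sox2-KD. Phlda1, an early response gene, was at 1.35 and 1.95 CPM in control and 6.92 and 7.36 CPM in Sox2-KD, against 1.29 to 2.64 CPM in the other 4 libraries. Its log2FC was 2.11 (SE 0.35, adjusted p = 0.0105), a call that held without Sox2-KD replicate 1 but not without any of the other 3 libraries compared (adjusted p = 0.0521 to 0.0913). Etv1, the third member of the Etv4 and Etv5 subfamily, was at 32.8 and 17.5 CPM in control and 62.1 and 46.9 CPM in Sox2-KD, with a log2FC of 1.12 (SE 0.27, adjusted p = 0.0442), a call that held without control replicate 1 but not without any of the other 3 (adjusted p = 0.101 to 0.231), with no filter on low counts (adjusted p = 0.0635) or with only the 4 libraries compared (adjusted p = 0.0630). The immediate early genes Egr1 and Fosl1 were too low to test, with at most 10 counts of Egr1 and 4 of Fosl1 in any library.

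Among 7 genes with a known OCT4 and SOX2 composite enhancer other than Fgf4, Utf1 rose in Sox2-KD, with a log2FC of 0.80 (SE 0.18, adjusted p = 0.0328, or 0.109 to 0.234 without any 1 library and 0.0695 with no filter on low counts), and Sox2 itself, the targeted gene, fell. Lefty1, a Nodal antagonist gene of this list, had a log2FC of 0.71 (SE 0.57, adjusted p = 0.549). Nanog (log2FC -0.43, SE 0.16, adjusted p = 0.161) and Pou5f1, which encodes OCT4 (log2FC -0.25, SE 0.14, adjusted p = 0.370), had both Sox2-KD libraries below both control libraries. At an unadjusted p under 0.05, 1 gene of the list was higher and 2 were lower, against 19.3% of all genes in either direction. The median log2FC of the list was -0.0023, against 0.02 for all genes. Utf1 was also above both control libraries in Cdk9-KD (log2FC 0.84, adjusted p = 0.137) and in the hnRNPK-KD-labelled libraries (log2FC 0.61, adjusted p = 0.457), and it did not differ past the threshold between knockdowns.

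**Figure D5:**
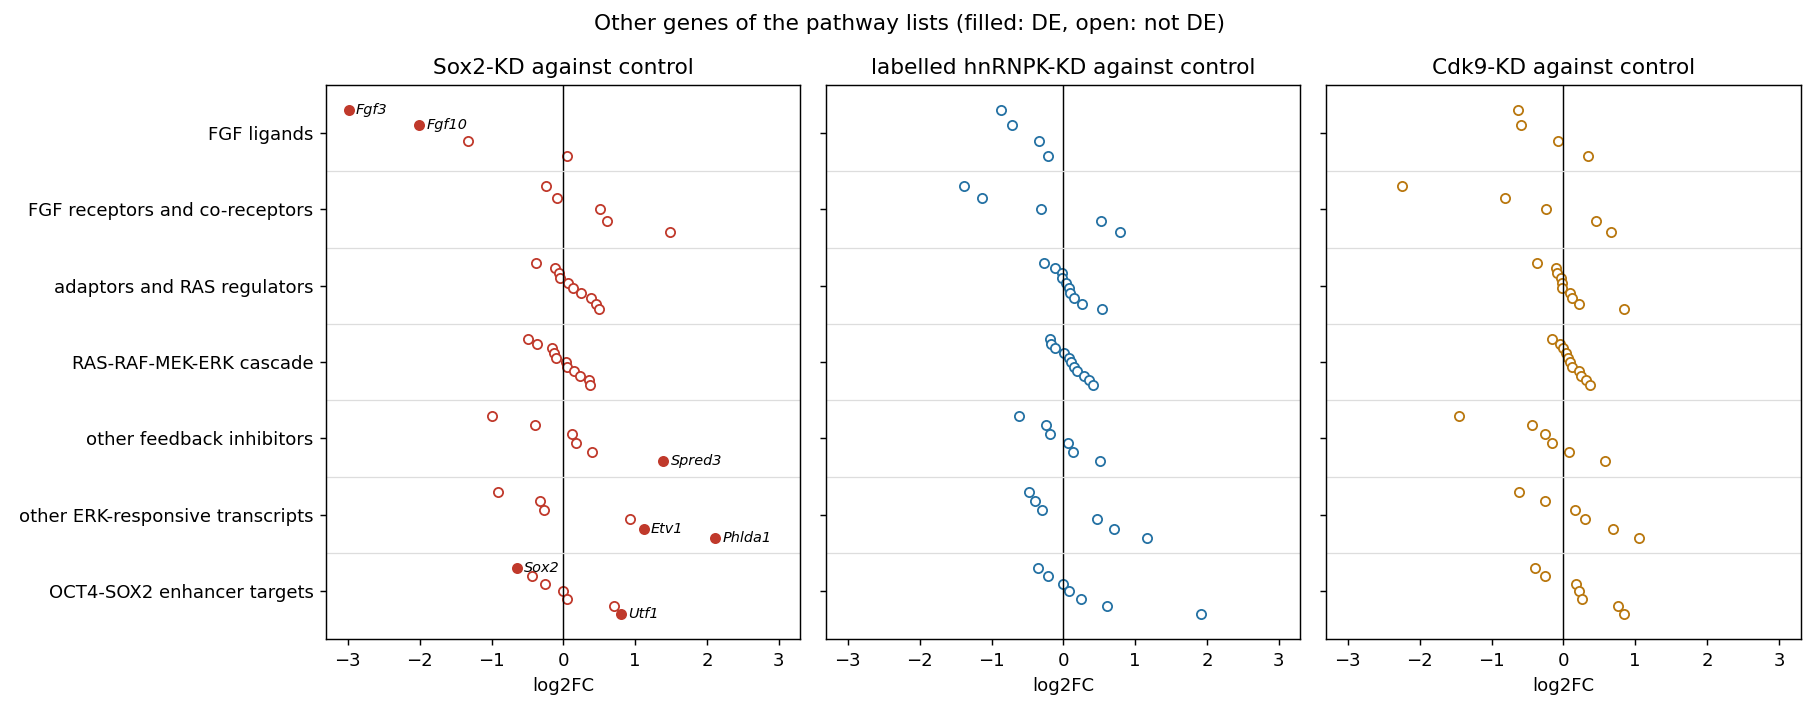
Log2FC against control (horizontal axis) of the 49 tested genes of 7 pathway lists (vertical axis) in each knockdown, 1 point per gene, filled and named where DE. Only the Sox2-KD panel has filled points, with Fgf3 (-2.99) and Fgf10 (-2.01) at the left and Phlda1 (2.11) and Spred3 (1.39) at the right.

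Among 12522 genes with an average log2 CPM over 1, the profile most like that of Fgf4 over the 8 libraries was that of Shank3, with a Pearson r of 0.980 between log2 CPM values. Pnpla3 (0.958), Mrpl55 (0.952), 2810408A11Rik (0.951) and Pgghg (0.945) followed. Shank3, which encodes a synaptic scaffold protein, was at 7.04 and 6.30 CPM in control, 2.75 and 4.62 CPM in Sox2-KD, 8.03 and 5.65 CPM in the hnRNPK-KD-labelled libraries and 9.52 and 11.3 CPM in Cdk9-KD. As for Fgf4, its lowest library was Sox2-KD replicate 1 and its highest Cdk9-KD replicate 2. The member profile least like that of Fgf4 was that of Fgfr2, with r of -0.797. The libraries share groups and depth, so these values describe the profiles only.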

How the data were processed

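RNA-seq was done on poly(A) RNA of 8 libraries, 2 in each of 4 groups, which were assigned from the sample labels. The authors trimmed reads with Trimmomatic, aligned them to mm10 and deposited raw counts per gene for GENCODE vM23, neither normalized nor pooled. The submitters' processing notes name FastQC, STAR 2.7.9a and featureCounts 2.0.1. The strand setting and the handling of reads shared by overlapping genes are not given in the sources used here. The study's methods speak of transcripts, but the values here are gene totals, so isoforms were not analysed.

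Symbols, exon lengths and positions came from GENCODE vM21 (GRCm38), which matched 55154 of 55335 identifiers and left 181 without a symbol. All count columns were matched to a library by name. The filter was filterByExpr (count of 10, total of 15), and genes were tested with edgeR 4.0.16 (limma 3.58.1, R 4.3.3) by the quasi-likelihood test, with TMM normalization, a group term, all 8 libraries in 1 fit and Benjamini-Hochberg adjustment over 16504 genes. The common biological coefficient of variation was 0.186. Precision is limited by 2 libraries a group, and for Fgfr2 also by its few counts. Replicates differed by more than counting noise in every group, so none were merged.

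The members and lists were chosen with earlier results of these data known. Genes named are the members, the DE genes and the 2 with the largest absolute log2FC in Sox2-KD of each pathway list, the targeted genes and the 5 most like Fgf4. A gene that the rule also names is not reported here. Ccnd1 and Fgf15 were added as neighbours of Fgf4, and Gata6, Dab2, Nanog, Pou5f1 and other genes from the marker and pathway lists, after their values were seen.

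Alternatives changed the test (DESeq2 1.42.0, edgeR's exact test or its likelihood ratio test), the scaling (DESeq2's size factors or plain library totals), the filter (none, or 10 counts in all libraries), the fit (the 4 compared libraries alone, or a block for the replicate number), the log2FC threshold (none) and the libraries (each left out in turn). The tests were tried on simulated counts with known changes. Promoter windows were those of RefSeq, with motifs searched on both strands. Plots used Python 3.11.15 with matplotlib 3.10.9.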

Additional observations from a re-analysis of the deposited data

Results flagged for a closer look

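The following members differed between knockdowns in a direct test of that difference by edgeR's quasi-likelihood test. The control libraries are left out of the difference, but all 8 libraries set the filter, the scaling and the spread. Fgf4 had a log2FC of -1.08 in Sox2-KD against Cdk9-KD, with both Sox2-KD libraries below both Cdk9-KD libraries. Fgfr2 had a log2FC of 3.27 in the same comparison, with both Sox2-KD libraries higher, at 3 to 74 counts a library. Spred1 had a log2FC of -0.79 in Sox2-KD against the hnRNPK-KD-labelled libraries and of -0.76 against Cdk9-KD, with both Sox2-KD libraries lower in each. For Spred1 the first of these comparisons rests on a group in which replicate 2 shows no drop of Hnrnpk. The groups hold 2 libraries each, too few to look for a library that stands apart within its group.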

How the results depend on the processing

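The number of members DE in Sox2-KD against control went from 3 to 5 with DESeq2, the likelihood ratio test or the exact test, which also called 1 member in the hnRNPK-KD-labelled libraries and 2 in Cdk9-KD. In Sox2-KD against the hnRNPK-KD-labelled libraries the count went from 1 to 2 with DESeq2, library totals or only the 4 libraries compared, and to 3 with the likelihood ratio test or the exact test. Fgfr1 was gained in all of these, and Fgfr2 with library totals and in the last 2 tests. Over all genes, the likelihood ratio test called 1350 against 713 in Sox2-KD, 87 against 0 in the hnRNPK-KD-labelled libraries and 279 against 23 in Cdk9-KD, and DESeq2 called 1029, 83 and 222. The other pathway genes counted here include the enhancer list, and with it Sox2 itself. Their count went from 7 to 4 without a filter in Sox2-KD and from 0 to 1 with DESeq2 in the hnRNPK-KD-labelled libraries. In Cdk9-KD it went from 0 to 2 with DESeq2 and to 3 with the likelihood ratio or exact test. The cause of these differences was not tested.

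With 1 library left out, members DE numbered 0 to 1 in Sox2-KD against control, where the 1 was Fgf4, 0 to 0 against the hnRNPK-KD-labelled libraries and 1 to 3 against Cdk9-KD, and other pathway genes DE in Sox2-KD numbered 1 to 3. In each of these fits fewer genes were called over all genes tested as well. A group left with 1 library was assumed to vary like the others.

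A fit with the replicate number as a block gave 3 members DE in Sox2-KD against control, 0 in the hnRNPK-KD-labelled libraries and 0 in Cdk9-KD, 1 in Sox2-KD against the hnRNPK-KD-labelled libraries, 3 in Sox2-KD against Cdk9-KD and 8 other pathway genes DE in Sox2-KD. The numbers are not stated to pair the libraries, and deviations of same-numbered libraries correlated between -0.22 and 0.21.

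With library totals, small log2FC changed sign: Etv4 to 0.013 and Etv5 to 0.054 in Sox2-KD against control, Etv5 to -0.013 in the hnRNPK-KD-labelled libraries and to 0.067 between these knockdowns, and Spred1 to 0.0013 in Cdk9-KD against the hnRNPK-KD-labelled libraries. Spred1 in Sox2-KD was no longer DE against Cdk9-KD with library totals (adjusted p = 0.0501) or no filter on low counts (adjusted p = 0.0513), or against the hnRNPK-KD-labelled libraries with library totals (adjusted p = 0.0536).

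With 1 library left out, these log2FC spanned 0. In Sox2-KD against control they ran for Etv4 from -0.40 to 0.21, for Etv5 from -0.12 to 0.073 and for Spred1 from -0.53 to 0.090. In the hnRNPK-KD-labelled libraries against control they ran for Etv4 from -0.16 to 0.23, for Etv5 from -0.060 to 0.081 and for Hnrnpk from -0.70 to 0.031. In Cdk9-KD against control they ran for Etv4 from -1.06 to 0.16, for Etv5 from -0.050 to 0.15, for Fgfr2 from -1.51 to 0.18, for Spry1 from -0.32 to 0.44 and for Spry2 from -0.13 to 0.60. In Sox2-KD against the hnRNPK-KD-labelled libraries they ran for Etv4 from -0.47 to 0.15, for Etv5 from -0.15 to 0.046, for Spry2 from -0.29 to 0.084 and for Spry4 from -0.49 to 0.33. In Sox2-KD against Cdk9-KD they ran for Dusp6 from -0.98 to 0.23, for Etv4 from -0.22 to 0.997, for Etv5 from -0.19 to 0.021, for Spry2 from -0.043 to 0.30 and for Spry4 from -0.83 to 0.38. In Cdk9-KD against the hnRNPK-KD-labelled libraries they ran for Dusp6 from -0.52 to 0.67, for Etv4 from -1.11 to 0.090, for Etv5 from -0.059 to 0.12, for Fgfr1 from -0.23 to 0.36, for Spred1 from -0.15 to 0.066, for Spry1 from -0.63 to 0.11 and for Spry4 from -0.52 to 0.68.

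Fgfr2 had no value under the filter of 10 counts in every library, or in Cdk9-KD against control with only these 4 libraries. Depth limits Fgfr2, with 3 to 74 counts a library, and with 2 libraries a group most members' intervals span more than the log2FC threshold. Of the members' recomputed log2FC, 740 kept their direction and their side of the thresholds, 26 passed them only in the alternative, 25 no longer passed and 42 changed sign.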
